A study of Homo sapiens with 96 samples.

Results

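The 10 genes described here belong to the ATF4 branch of the integrated stress response: the transcription factors ATF4 and DDIT3, the feedback genes PPP1R15A and TRIB3, the stress effectors DDIT4, CHAC1 and SESN2, and the amino acid synthesis genes ASNS, PSAT1 and PHGDH. They were taken by symbol from a table of raw read counts with 44659 gene entries, over all 32 groups of the series. Of the 10, 8 were among the 14948 genes that passed a filter on low counts and were tested. ASNS and SESN2 did not pass and are given by their counts only. The data were 96 QuantSeq libraries, which hold reads from the 3′ ends of polyadenylated RNA. Each was prepared from 500 ng of cytoplasmic RNA of A375, a human cell line from a melanoma with mutant BRAF. Cells were kept for 18 h in DMSO, the control, or in MAPKi, a mix of 500 nM vemurafenib and 500 nM cobimetinib that inhibits BRAF and MEK. A second treatment followed for 0, 1, 3 or 5 h. It was vehicle, cycloheximide at 100 µg/ml (CHX, an inhibitor of elongating ribosomes), triptolide at 25 µM (T, an inhibitor of RNA polymerase II transcription) or the 2 inhibitors combined (TCHX), where cycloheximide preceded triptolide by 5 min. Each of the 32 combinations of pretreatment, arm and time had 3 libraries. All groups shared the cell line and a medium supplemented with glutamine. The study describes 4 identical batches of cultures, the first harvested at 0 h and the others after 3 and 5 h. It names no batch for 1 h, and the sample labels give none. Time and batch may therefore coincide, and their effects cannot be told apart. Whether arms and pretreatments of the same time came from the same batch is not stated. The sources do not say that the 3 libraries of a group were separate cultures, and p-values therefore measure the spread between these libraries, which may be technical.

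In the integrated stress response, kinases that sense amino acid shortage, unfolded protein, viral RNA or haem shortage phosphorylate the initiation factor eIF2. Translation of most mRNAs then falls, while upstream reading frames in the ATF4 mRNA allow more ATF4 protein to be made. ATF4 is a bZIP factor that, with C/EBP partners, activates genes for amino acid synthesis and uptake and for stress adaptation through composite C/EBP-ATF elements. DDIT3 encodes CHOP, a C/EBP family factor that acts with ATF4 and is known for its role in cell death under persistent stress. PPP1R15A encodes GADD34, which guides protein phosphatase 1 to eIF2 and so ends the response, and TRIB3 is a pseudokinase that binds ATF4 and AKT. DDIT4 (REDD1) and SESN2 restrain mTORC1 signalling, CHAC1 degrades glutathione, ASNS makes asparagine, and PHGDH and PSAT1 catalyse successive steps of serine synthesis.

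Total counts ran from 2381351 to 12520154 per library, with a median of 7143396, and the lowest was a triptolide library of MAPKi at 0 h. Members differed widely in the number of reads behind them. ATF4 had 691 to 15835 counts per library and PPP1R15A 15 to 6815, whereas CHAC1 had 0 to 34 and was at 0 in 10 of the 96 libraries. Reads of SESN2 came to 31 in all libraries together, and a second entry named SESN2_1, whose relation to the gene the table does not state, had 305. ASNS had 15 counts in all. A readthrough RNA, CZ1P-ASNS, covers 76325 of the 76765 bases that RefSeq gives to ASNS and had 3 counts. How reads over the shared exons were assigned was not tested, so the low number is not read as the level of ASNS. The 3′ end of DDIT3 shares 65 bases with that of MARS1 on the other strand and 2769 bases with LOC128125814, which is not a row of the table. Since no source states whether counting used strand, the level of DDIT3 carries that uncertainty. Melanocytic identity was checked on vehicle libraries at 0 h: 9 of 11 melanoma markers were above 1 CPM in DMSO and 10 of 11 in MAPKi, with summed levels of 1314 to 1393 and 2905 to 3996 CPM. MLANA was at 0 to 0.317 CPM in DMSO, and TYR at 0.207 to 0.952 in DMSO and 0 to 0.537 in MAPKi. Most of the MAPKi sum was DCT, with means of 54.9 CPM in DMSO and 2131 in MAPKi. Means of CSPG4 (261 and 51.1), S100B (301 and 215) and TYR were lower in MAPKi, and those of the other markers higher. The leukocyte genes CD3E and PTPRC were at 0 to 0.207 CPM, the epithelial genes KRT5 and CDH1 at 0 and EPCAM at 0 to 0.135. The summed leukocyte list of 3 genes was nonetheless higher in MAPKi, at 13.6 to 18.0 against 2.01 to 3.32 CPM in DMSO, because of CD68, a lysosomal gene, and its part in the results was not tested. Of the fibroblast genes, LUM was at 2.96 to 3.13 CPM in DMSO and 4.18 to 5.90 in MAPKi. PDGFRA was at 1.24 to 1.69 and 0 to 0.411 CPM, and DCN at 0. The endothelial gene VWF was at 0 to 0.622 CPM in DMSO and 0.715 to 2.16 in MAPKi, and PECAM1 at 0. MAPKi acted on its pathway: all 10 tested MAPK output genes, among them DUSP6 and SPRY4, were lower in MAPKi, with a median log2 change of -4.20 at 0 h.

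Promoters of 4 members are shown because ATF4, DDIT3 and PPP1R15A moved together in these data and CHAC1 carried the element through which ATF4 is known to act. All 10 members had an entry among RefSeq promoters of GRCh38.p14, each 300 bases long from 250 bases before to 50 bases after the annotated start. Both strands were searched for the C/EBP-ATF composite element TGATGNAA, the cyclic AMP response element TGACGTCA and the TATA box TATAAA, and capitals mark the matches below. The sequences run 5′ to 3′ on the strand of the gene.
ATF4, chr22:39520312-39520611, plus strand: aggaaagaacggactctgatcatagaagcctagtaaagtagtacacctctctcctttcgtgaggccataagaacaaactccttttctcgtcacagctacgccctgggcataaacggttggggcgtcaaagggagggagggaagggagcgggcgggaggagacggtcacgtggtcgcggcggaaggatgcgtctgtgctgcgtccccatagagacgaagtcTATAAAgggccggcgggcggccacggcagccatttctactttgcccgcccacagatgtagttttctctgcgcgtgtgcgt
DDIT3, chr12:57520468-57520767, minus strand: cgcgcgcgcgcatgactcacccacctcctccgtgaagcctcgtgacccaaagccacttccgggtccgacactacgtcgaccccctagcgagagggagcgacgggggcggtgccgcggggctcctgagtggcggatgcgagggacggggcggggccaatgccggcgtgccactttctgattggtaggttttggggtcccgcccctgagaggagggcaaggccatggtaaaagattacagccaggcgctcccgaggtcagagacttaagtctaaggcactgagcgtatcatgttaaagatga
PPP1R15A, chr19:48872171-48872470, plus strand: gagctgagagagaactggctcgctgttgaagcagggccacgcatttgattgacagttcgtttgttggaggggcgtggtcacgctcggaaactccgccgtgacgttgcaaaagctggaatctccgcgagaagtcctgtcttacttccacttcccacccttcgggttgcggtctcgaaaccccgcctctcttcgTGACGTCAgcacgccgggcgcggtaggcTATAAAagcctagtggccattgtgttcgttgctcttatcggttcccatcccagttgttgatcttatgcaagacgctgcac
CHAC1, chr15:40953221-40953520, plus strand: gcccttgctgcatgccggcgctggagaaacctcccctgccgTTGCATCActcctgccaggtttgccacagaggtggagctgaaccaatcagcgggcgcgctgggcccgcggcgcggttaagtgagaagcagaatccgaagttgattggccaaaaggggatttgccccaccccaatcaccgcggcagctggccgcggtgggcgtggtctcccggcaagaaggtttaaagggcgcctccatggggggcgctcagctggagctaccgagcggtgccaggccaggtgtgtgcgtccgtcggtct

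The composite element was found in the promoters of CHAC1, 209 bases before the start in reverse orientation, and of ASNS, 68 bases before it, and in 3.62% of 35116 promoters of the same length. PPP1R15A held a cyclic AMP response element at position -58, present in 1.85% of promoters, and a TATA box at -30. ATF4 also had a TATA box at -30, PHGDH had these letters in reverse at -213, and 11.5% of promoters contained them. Windows of DDIT3, TRIB3, DDIT4, SESN2 and PSAT1 had none of the 3 strings. A match describes letters in the window and was not tested for function. On GRCh38 in GENCODE v44, ATF4 lies on chromosome 22 (39519695-39522683), DDIT3 on 12 (57516588-57521737), PPP1R15A on 19 (48872212-48876059), TRIB3 on 20 (362835-397559) and DDIT4 on 10 (72273919-72276036).

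The first comparison asked how MAPKi alone had changed these mRNAs. Before any second inhibitor, TRIB3 and CHAC1 were lower and DDIT4 and DDIT3 higher in MAPKi than in DMSO cells, and the other 4 tested members were not called. This made 2 of 8 higher and 2 of 8 lower (edgeR quasi-likelihood test, adjusted p under 0.05), where 21.9% and 24% of all genes tested were called, so that the members' share was near the background. Levels in this comparison are CPM, read counts relative to a library size scaled by TMM. TRIB3 stood at 27.2, 26.6 and 30.2 CPM in the 3 DMSO libraries and at 10.6, 10.9 and 9.57 CPM in the 3 MAPKi libraries. Every MAPKi library was below every DMSO library, a 2.71-fold lower level (log2 change -1.44, SE 0.20, adjusted p = 2.28e-09). DDIT4 was at 44.4, 41.2 and 48.1 CPM in DMSO and 68.8, 87.1 and 76.4 CPM in MAPKi, again without overlap and 1.73-fold higher (log2 change 0.79, SE 0.19, adjusted p = 4.22e-04). DDIT3 was 1.40-fold higher, at 29.9, 29.7 and 26.3 against 39.6, 35.4 and 44.3 CPM (log2 change 0.48, SE 0.15, adjusted p = 0.00624), also without overlap. The 2 genes that ATF4 is known to induce together under stress, DDIT3 and TRIB3, thus differed in opposite directions. CHAC1 rested on 15, 5 and 22 reads in DMSO and 5, 1 and 0 in MAPKi (log2 change -2.74, SE 0.81, adjusted p = 0.00369). Without the libraries numbered 3, the adjusted p rose to 0.127 for DDIT3 and 0.111 for CHAC1, and the log2 change of CHAC1 was -2.03, against -4.08 without the libraries numbered 1. Without the libraries numbered 2, 6 of 8 members were called in all, and without those numbered 3, 2 were. ATF4 itself was at 329, 275 and 264 CPM in DMSO and 203, 266 and 252 CPM in MAPKi, with overlapping groups and a 95% interval of the log2 change, here and elsewhere not adjusted for the number of genes, from -0.54 to 0.00. In bulk RNA, a lower level in every cell and fewer cells with the mRNA cannot be told apart.

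Over the 12 vehicle libraries of each pretreatment, from 4 times, TRIB3, CHAC1, DDIT4 and DDIT3 differed in these same directions by edgeR. DDIT3 was higher (log2 change 0.34, adjusted p = 4.58e-05) and CHAC1, on few reads, lower (log2 change -1.75, adjusted p = 3.01e-05). Neither call changed in any of 9 alternatives. TRIB3 ran from 21.4 to 38.3 with a median of 28.6 CPM in DMSO libraries, and in MAPKi it ran from 8.55 to 15.7 with a median of 11.0 CPM (log2 change -1.37, SE 0.10, adjusted p = 5.34e-22), the only member whose 2 sets of libraries did not overlap. DDIT4 ran from 18.7 to 48.1 with a median of 32.7 CPM in DMSO and from 34.4 to 87.1 with a median of 56.5 CPM in MAPKi (log2 change 0.77, SE 0.10, adjusted p = 1.25e-10). For DDIT4 the DMSO libraries at 0 h overlapped the MAPKi libraries at 1 and 3 h. ATF4 was 1.34-fold lower in MAPKi (log2 change -0.42, SE 0.07, adjusted p = 1.21e-07), with libraries from 264 to 472 with a median of 377 and from 203 to 374.5 with a median of 259 CPM. In total, 2 of 8 members were called higher and 5 lower, against 35.8% and 33.1% of all genes tested. The serine synthesis genes were among the lower ones: PHGDH by 1.26-fold (log2 change -0.34, SE 0.07, adjusted p = 6.58e-06) and PSAT1 by 1.17-fold (log2 change -0.22, SE 0.09, adjusted p = 0.0282). The call of PSAT1 was lost without the libraries numbered 2 (adjusted p = 0.2) or 3 (adjusted p = 0.29), with DESeq2 (adjusted p = 0.0645) and with the size factors of DESeq2 in edgeR (adjusted p = 0.0681). PPP1R15A was not called, with a 95% interval of the log2 change from -0.24 to 0.11. The test took the 12 libraries of a pretreatment as independent. In MAPKi, however, PSAT1 was lowest in number 2 at 0, 1 and 3 h, so these p-values may be too small.

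**Figure D1:**
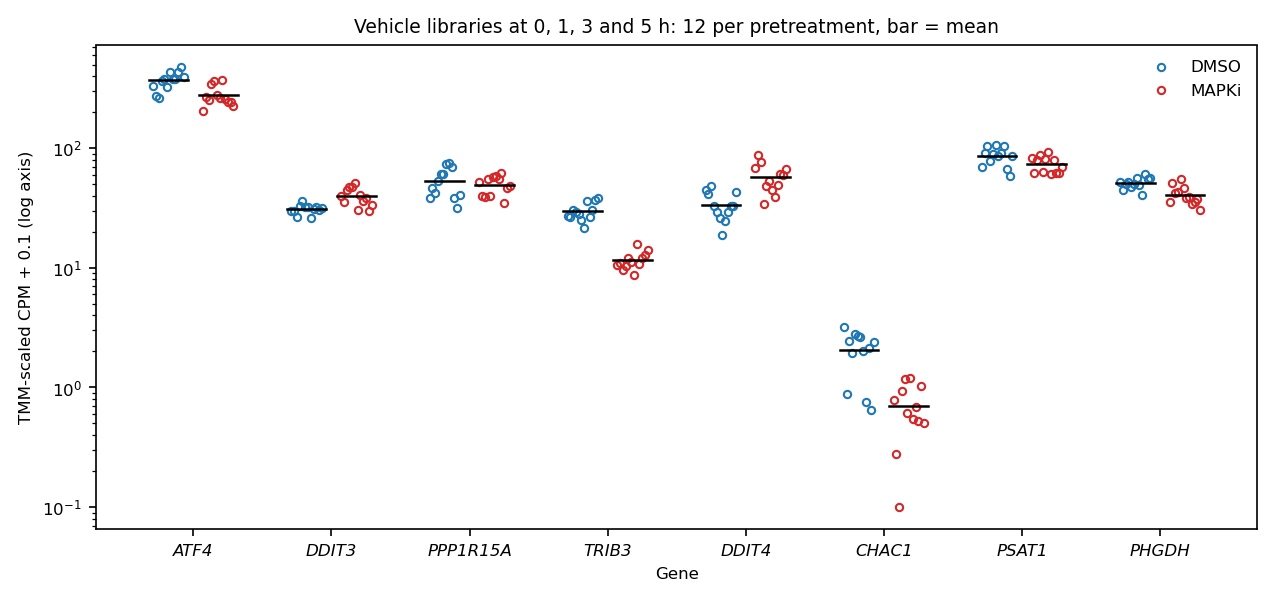
Level of the 8 tested members (TMM-scaled CPM + 0.1, log axis) in the 12 vehicle libraries of DMSO (blue) and MAPKi (red); points are libraries in order of time and black bars are means. The MAPKi libraries of TRIB3 all sit below its DMSO libraries, while DDIT4 is shifted upwards and the PPP1R15A libraries of the 2 pretreatments overlap.

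Other genes of the pathway were set beside the members from lists of known sensors, partners and ATF4 targets. In MAPKi over the 12 vehicle libraries, 10 of 12 tested tRNA synthetase genes and XPOT together were lower and none higher, with a median log2 change of -0.36, and GARS1 changed by -0.89 (SE 0.05). Among genes of amino acid metabolism, 3 of 12 genes were higher and 8 lower, with MTHFD2, a mitochondrial folate enzyme, at -1.92 (SE 0.09) and GOT1 at 0.70 (SE 0.08). Of the transporters, 2 of 9 genes were higher and 6 lower. SLC1A5, a glutamine carrier, changed by -2.09 (SE 0.07), and SLC7A5, which imports leucine, by 0.76 (SE 0.06). Secreted and stress-related targets also went both ways, since 6 of 15 genes were higher and 7 lower. GDF15, a stress-induced hormone, changed by -3.73 (SE 0.09) and the apoptosis gene BBC3 by 2.24 (SE 0.12). Of the sensors and eIF2 factors, 2 of 19 genes were higher and 13 lower, and the eIF2B subunit gene EIF2B3 changed by -1.25 (SE 0.07). Of the partner transcription factors, 5 of 13 genes were higher and 6 lower, led by NUPR1 at 4.09 (SE 0.23) and ATF3 at 2.75 (SE 0.11). Among relatives of the members, TRIB1 changed by -2.56 (SE 0.11), TRIB2 by -2.25 (SE 0.08) and SESN3 by 3.14 (SE 0.07), in a list where 2 of 8 genes were higher and 6 lower. Of all genes tested, 35.8% were higher and 33.1% lower, with a median log2 change of 0.05, and the lists were not tested against these shares.

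Without a second inhibitor, 1 member was called between 0 and 5 h. In DMSO, only ATF4 was called, at 329, 275 and 264 CPM at 0 h and 435, 472 and 390.0 CPM at 5 h (log2 change 0.58, SE 0.14, adjusted p = 0.0124), where 0.582% of all genes tested were called higher and 0.482% lower. The groups did not overlap, but the call was lost without the libraries numbered 1 (adjusted p = 0.122), 2 (adjusted p = 0.248) or 3 (adjusted p = 0.0634). In MAPKi, 0 of 8 members were called by edgeR or DESeq2, with 1 at an unadjusted p under 0.05, and 1.26% and 2.07% of all genes. PPP1R15A and DDIT4 had other levels between these times. PPP1R15A in DMSO was at 38.4, 46.8 and 42.3 CPM at 0 h, 53.4, 60.8 and 61.2 at 1 h, 73.8, 75.8 and 69.5 at 3 h and 38.0, 31.6 and 40.8 at 5 h. Its libraries at 1 and 3 h were above all those at 0 h, and in MAPKi the means were 43.6 ± 7.26 (SD, n = 3), 50.6 ± 9.44, 58.6 ± 2.89 and 43.0 ± 7.49 CPM. DDIT4 was lower at 1 and 3 h: its mean in DMSO was 44.6 ± 3.49 (SD, n = 3) CPM at 0 h, 29.2 ± 3.46 at 1 h, 24.1 ± 5.25 at 3 h and 36.2 ± 5.88 at 5 h, and in MAPKi 77.4 ± 9.18, 45.2 ± 9.76, 44.3 ± 4.78 and 62.3 ± 3.77 CPM. The times between 0 and 5 h were not tested.

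The second set of comparisons asked how a block of translation elongation changed the members. At 1 h of CHX the response was small. DDIT3 was called in DMSO, at 32.8, 36.3 and 32.3 CPM with vehicle and 50.6, 50.1 and 64.9 CPM with CHX (log2 change 0.70, SE 0.15, adjusted p = 0.0129), and DDIT4 in MAPKi, at 34.4, 47.8 and 53.3 CPM with vehicle and 84.2, 83.3 and 94.0 CPM with CHX (log2 change 0.94, SE 0.19, adjusted p = 0.0136). Neither pair of groups overlapped. These were 1 of 8 members in each pretreatment, where 0.0736% of all genes tested were higher and 0% lower in DMSO and 0.0602% and 0.0134% in MAPKi. The 0% stands for 0 genes called lower by edgeR in DMSO, with 302 at an unadjusted p under 0.05 and 0 by DESeq2. Neither call held in every subset of libraries. For DDIT3 the adjusted p was 0.503, 0.0524 and 0.903 without the libraries numbered 1, 2 and 3, and for DDIT4 it was 0.426 and 0.47 without those numbered 1 and 2. PPP1R15A was at 53.4, 60.8 and 61.2 CPM with vehicle and 76.8, 92.1 and 76.5 CPM with CHX in DMSO, groups that did not overlap but were not called (adjusted p = 0.801).

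At 3 and 5 h of CHX, ATF4, DDIT3, PPP1R15A and DDIT4 were higher than with vehicle in both pretreatments, in every library of these times. Thus 4 of 8 members rose in DMSO, against 18.3% of all genes tested, and 4 of 8 in MAPKi, against 15.9%. ATF4, the transcription factor, was at 432, 382 and 376 CPM with vehicle and 934, 941 and 996 CPM with CHX at 3 h of DMSO, and at 435, 472 and 390.0 and 1696, 1653 and 1481 CPM at 5 h. Over both times this was a 3.00-fold rise (log2 change 1.58, SE 0.10, adjusted p = 5.16e-24). In MAPKi, ATF4 was at 242, 243 and 224 CPM with vehicle and 848, 681 and 781 CPM with CHX at 5 h, and rose 2.49-fold over both times (log2 change 1.31, SE 0.10, adjusted p = 2.20e-19). DDIT3 reached 298, 301 and 301 CPM at 5 h of CHX in DMSO, where the vehicle libraries were at 31.96, 30.5 and 31.7 CPM. The rise over both times was 8.39-fold in DMSO (log2 change 3.07, SE 0.11, adjusted p = 5.22e-39) and 3.54-fold in MAPKi (log2 change 1.82, SE 0.10, adjusted p = 1.51e-25), where DDIT3 was at 134, 106 and 125 CPM at 3 h and 135, 99.3 and 137 CPM at 5 h. Its MAPKi groups at 3 and 5 h thus overlapped, whereas in DMSO each 5 h library was above each 3 h library.

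PPP1R15A, which encodes the eIF2 phosphatase subunit, had the largest fold change with CHX among the 8 tested members in both pretreatments. With CHX in DMSO it stood at 37.6, 35.7 and 40.5 CPM at 0 h, 76.8, 92.1 and 76.5 at 1 h, 412, 428 and 429 at 3 h and 515, 573 and 637 at 5 h. These 4 groups did not overlap, and the vehicle libraries of 3 and 5 h ran from 31.6 to 75.8 with a median of 55.1 CPM. The rise was 9.47-fold (log2 change 3.24, SE 0.13, adjusted p = 4.81e-35). In MAPKi it reached 193, 233 and 233 CPM at 3 h and 308, 354 and 333 CPM at 5 h, a 5.36-fold rise (log2 change 2.42, SE 0.13, adjusted p = 1.75e-27). The other feedback gene, TRIB3, was not called in either pretreatment: its libraries with CHX ran from 21.5 to 28.9 with a median of 27.1 CPM in DMSO and from 11.2 to 16.1 with a median of 12.2 CPM in MAPKi, within or close to the vehicle ranges. The 95% interval of its log2 change was -0.51 to -0.01 in DMSO and -0.15 to 0.39 in MAPKi, both below the log2 changes of PPP1R15A. With stable-gene scaling TRIB3 was called higher in MAPKi (log2 change 0.43).

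DDIT4, the inhibitor of mTORC1, was 3.48-fold higher with CHX in DMSO (log2 change 1.80, SE 0.14, adjusted p = 1.51e-18), at 122, 127 and 131 CPM at 5 h against 32.9, 32.7 and 43.0 CPM with vehicle. In MAPKi, where it started higher, it was at 112, 105 and 125 CPM with CHX and 60.7, 59.6 and 66.6 CPM with vehicle at 5 h, 2.01-fold over both times (log2 change 1.01, SE 0.13, adjusted p = 3.54e-09). The groups with CHX of the 2 pretreatments thus overlapped at 5 h. The serine synthesis genes were not among those that rose. In DMSO, where 2 of 8 members were called lower against 13.4% of all genes, PHGDH fell to 44.9, 43.3 and 39.4 CPM at 5 h from 60.8, 55.3 and 55.9 CPM with vehicle (log2 change -0.38, SE 0.09, adjusted p = 7.77e-04). PSAT1 was also called (log2 change -0.38, SE 0.13, adjusted p = 0.0195), but not with stable-gene scaling (adjusted p = 0.131) or without the libraries numbered 1 (0.0906) or 3 (0.108). In MAPKi 0 of 8 were called lower by edgeR, with 0 at an unadjusted p under 0.05 and 0 by DESeq2, against 13.9% of all genes, and PHGDH had a 95% interval from -0.26 to 0.11. CHAC1 had 7, 6 and 10 reads with CHX and 9, 2 and 17 reads with vehicle at 5 h of DMSO. In MAPKi at 5 h it had 16, 15 and 12 reads with CHX and 3, 7 and 4 with vehicle, and its levels of 1.57, 1.32 and 1.19 and 0.429, 0.936 and 0.403 CPM did not overlap. At 3 h they overlapped, and over both times CHAC1 was not called in MAPKi (log2 change 0.68, SE 0.52, adjusted p = 0.36).

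**Figure D2:**
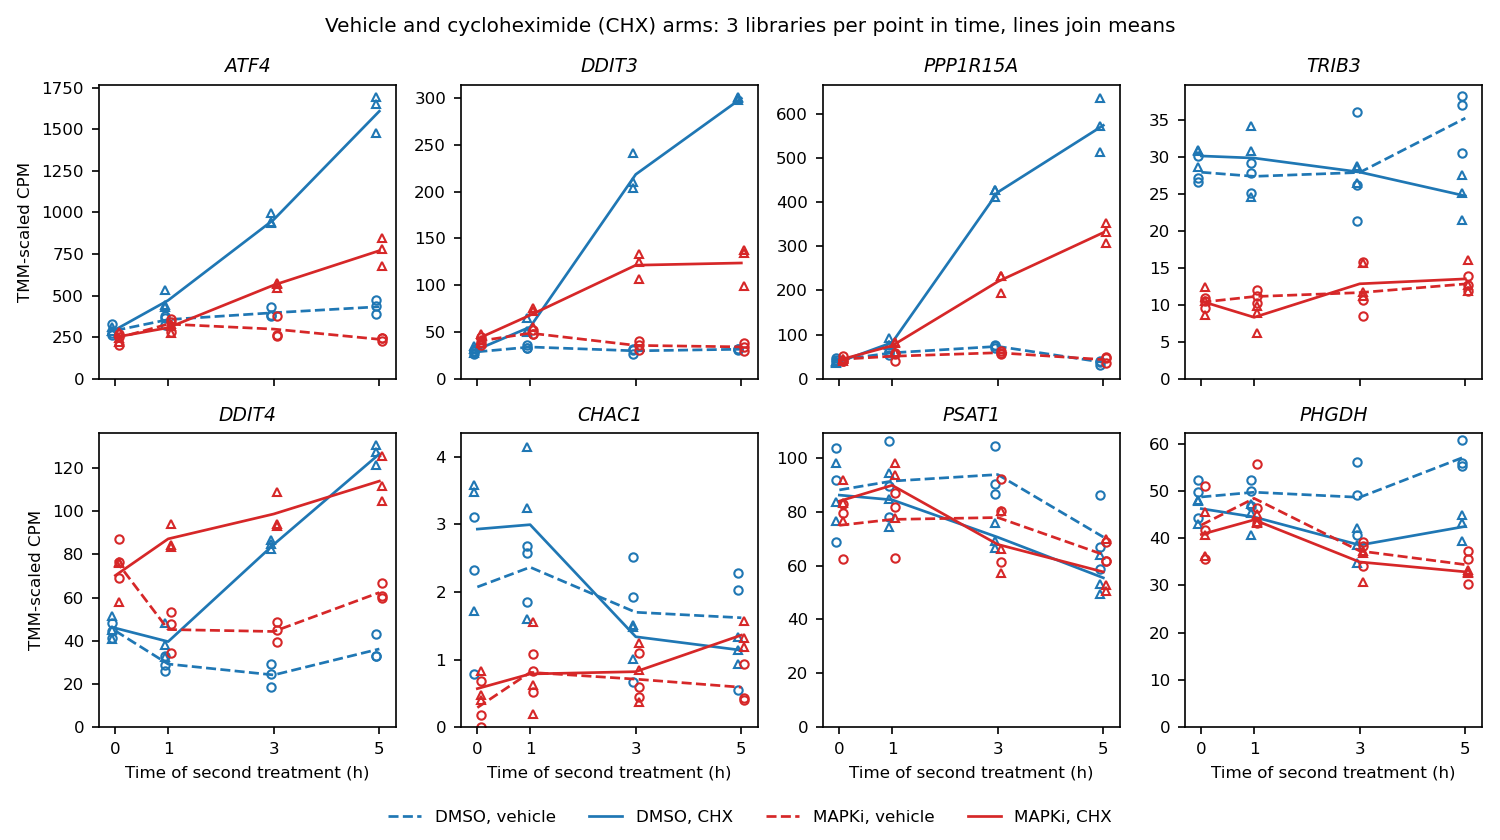
TMM-scaled CPM of the 8 tested members against time of the second treatment (h) in DMSO (blue) and MAPKi (red), with vehicle (circles, dashed) or CHX (triangles, solid); each point is a library and lines join means of 3. At 3 and 5 h the CHX libraries of ATF4, DDIT3, PPP1R15A and DDIT4 lie above the vehicle libraries of the same pretreatment, while those of TRIB3, CHAC1, PSAT1 and PHGDH overlap them when both times are pooled.

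Whether MAPKi changed the response to CHX was tested as a difference of differences. At 3 and 5 h the rise of DDIT3 was smaller in MAPKi (log2 difference -1.24, SE 0.14, adjusted p = 2.52e-10), as was that of PPP1R15A (log2 difference -0.82, SE 0.17, adjusted p = 3.78e-04) and DDIT4 (log2 difference -0.79, SE 0.19, adjusted p = 0.00233). These were 3 of 8 members lower and 0 higher, against 6.6% and 4.64% of all genes tested. For DDIT4 the adjusted p was 0.0669 without the libraries numbered 2. The smaller ratios had different starting points: DDIT3 and DDIT4 were already higher in MAPKi with vehicle, whereas PPP1R15A was not. The rise of ATF4 did not differ by the test (log2 difference -0.27, SE 0.14, adjusted p = 0.21), with a 95% interval from -0.54 to -0.01. At 1 h no member was called by edgeR or DESeq2, 2 had an unadjusted p under 0.05, and 0.0201% of all genes were called lower and 0% higher, the latter being 0 genes with 565 at an unadjusted p under 0.05 and 0 by DESeq2. Size factors from stable genes moved the median log2 change of all genes from 0.01 to 0.14 in DMSO, from -0.01 to 0.28 in MAPKi and from -0.04 to 0.12 for the difference. The share of higher genes among those called went from 57.6% to 81.2% in DMSO, from 53.4% to 94.2% in MAPKi and from 41.3% to 77.7% for the difference, while the 4 members that rose and the 3 that differed were called in the same directions. TRIB3 (log2 difference 0.55) and PHGDH (0.48) were then called as well, as higher.

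Among the other pathway genes, the list of partner transcription factors held genes that rose and none that fell. With CHX at 3 and 5 h, 7 of 13 genes were higher and 0 lower in DMSO and 7 of 13 genes were higher and 0 lower in MAPKi, with list medians of 0.81 and 0.50 on the log2 scale, beside medians of all genes of 0.01 and -0.01. ATF3, a bZIP factor and target of ATF4, changed by 5.29 (SE 0.16) in DMSO and 1.79 (SE 0.13) in MAPKi, a difference of -3.50 (SE 0.19), and CEBPD changed by 1.38 (SE 0.15) in DMSO. In the tRNA synthetase list, 0 of 12 genes were higher and 4 lower in DMSO and 0 of 12 genes were higher and 5 lower in MAPKi, and in that of amino acid metabolism 1 of 12 genes were higher and 3 lower in DMSO and 1 of 12 genes were higher and 3 lower in MAPKi. Of the transporters, 3 of 9 genes were higher and 4 lower in DMSO and 1 of 9 genes were higher and 3 lower in MAPKi. In DMSO, SLC3A2, the heavy chain of several amino acid exchangers, changed by 1.04 (SE 0.07) and SLC7A11, the cystine carrier, by -0.80 (SE 0.11). Of the signal and stress targets 10 of 15 genes were higher and 1 lower in DMSO and 6 of 15 genes were higher and 5 lower in MAPKi, with medians of 0.52 and -0.04, among them in DMSO TXNIP at 4.21 (SE 0.14) and GADD45A at 1.64 (SE 0.11). In the other branches of the unfolded protein response, 3 of 17 genes were higher and 2 lower in DMSO and 0 of 17 genes were higher and 9 lower in MAPKi, and PPP1R15B, the constitutive relative of PPP1R15A, changed by 0.71 (SE 0.10) in DMSO. Of all genes tested, 18.3% were higher and 13.4% lower in DMSO, and 15.9% and 13.9% in MAPKi. The lists were not tested against these shares.

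The third set of comparisons followed the loss of each mRNA once transcription was blocked with triptolide, with levels as counts normalised to 36 stable genes and set against the vehicle libraries at 0 h. These genes were picked because their CPM was higher with triptolide at 3 and 5 h than with vehicle at 0 h, in these same libraries. In DMSO, members other than CHAC1, which had few reads, fell into 3 kinds. DDIT4 and DDIT3 were nearly gone after 5 h, PPP1R15A, TRIB3 and ATF4 were partly lost, and PSAT1 and PHGDH remained close to their initial levels. These kinds were less distinct in MAPKi, where PPP1R15A kept 6.53% and TRIB3 10.3% at 5 h, beside 2.86% for DDIT3 and 31.0% for ATF4. At 5 h, 7 of 8 members were called lower in DMSO and 5 of 8 in MAPKi, where 49.3% and 55.1% of all genes tested were, and 0 members were higher in either (0 at an unadjusted p under 0.05 and 0 by DESeq2), against 1.49% and 1.54%. DDIT4 was at 347, 301 and 339 normalised counts at 0 h and 4.43, 1.57 and 10.0 after 5 h of triptolide in DMSO, and at 513, 646 and 554 and 12.9, 9.81 and 10.6 in MAPKi. What was left was 1.62% ± 1.31 (SD, n = 3) of the initial level in DMSO and 1.94% ± 0.279 in MAPKi (log2 change -5.84, SE 0.30, adjusted p = 6.05e-29 and log2 change -5.67, SE 0.27, adjusted p = 5.18e-31). Without the libraries numbered 3 the log2 change in DMSO was -6.73. DDIT3 fell from 233, 218 and 186 to 6.64, 10.2 and 6.28 normalised counts in DMSO and from 295, 263 and 322 to 9.29, 12.7 and 3.17 in MAPKi, which left 3.64% ± 1.03 and 2.86% ± 1.64 (log2 change -4.77, SE 0.24, adjusted p = 1.46e-29 and log2 change -4.98, SE 0.23, adjusted p = 5.45e-32). All libraries of both genes at 5 h were below all their libraries at 0 h.

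More of the ATF4 mRNA remained. It was at 2571, 2013 and 1862 normalised counts at 0 h and 2081, 1691 and 2296 at 1 h of triptolide in DMSO, groups that overlapped, and at 897, 741 and 652 at 5 h. In DMSO 46.5% ± 6.80 remained at 3 h and 35.5% ± 5.78 at 5 h (log2 change -1.49, SE 0.16, adjusted p = 3.86e-13), whereas MAPKi cells kept 41.0% ± 7.33 and 31.0% ± 9.34 (log2 change -1.70, SE 0.16, adjusted p = 2.34e-15). PPP1R15A kept 24.7% ± 8.52 at 3 h and 19.1% ± 2.57 at 5 h in DMSO, but 6.65% ± 3.28 and 6.53% ± 3.20 in MAPKi. Its libraries at 3 h were 81.8, 102 and 48.8 in DMSO and 32.9, 12.1 and 19.3 in MAPKi, from starting levels of 299.6, 342 and 298 and 387, 297 and 282 normalised counts. The starting levels overlapped and the levels at 3 h did not. TRIB3 kept 34.2% ± 4.30 in DMSO and 10.3% ± 4.34 in MAPKi at 5 h, with 62.0, 70.0 and 79.7 and 10.7, 8.65 and 4.23 normalised counts left.

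These losses differed between pretreatments for PPP1R15A and TRIB3. In the test of the difference in log2 loss over 3 and 5 h, PPP1R15A lost more in MAPKi (log2 difference -1.70, SE 0.26, adjusted p = 3.26e-06) and so did TRIB3 (log2 difference -1.28, SE 0.25, adjusted p = 4.11e-04), 2 of 8 members against 2.76% of all genes tested, and 0 of 8 were called in the other direction (1 at an unadjusted p under 0.05 and 0 by DESeq2) against 0.415%. For TRIB3 the adjusted p was 0.0515 without the libraries numbered 2. For ATF4 the 95% interval of the difference ran from -0.57 to 0.18 and for DDIT3 from -0.84 to 0.22. With TMM scaling the share of higher genes among all those called for this difference went from 13.1% to 41.0% and the median of all genes from -0.11 to 0.06, and with mitochondrial rRNA scaling 1623 genes were called in place of 474, with 3.33% of them higher and a median of -0.39. At 1 h, DDIT3 (log2 change -0.71, SE 0.17, adjusted p = 0.0194) and DDIT4 (log2 change -0.85, SE 0.20, adjusted p = 0.0151) were the 2 of 8 members lower in DMSO, against 0.823% of all genes, with 0.0602% higher. In MAPKi, DDIT4 (log2 change -1.56, SE 0.20, adjusted p = 5.13e-08), DDIT3 (log2 change -1.51, SE 0.18, adjusted p = 1.30e-09) and PPP1R15A (log2 change -1.10, SE 0.19, adjusted p = 1.14e-04) were lower, 3 of 8 against 1.57%, with 0.0468% higher. DDIT4 was also lower at 1 h with vehicle alone, at 61.6% ± 8.24 (SD, n = 3) of its 0 h level in DMSO and 54.0% ± 10.4 in MAPKi. With triptolide at 1 h it was at 55.8% ± 25.5 and 34.0% ± 7.18. Triptolide was not tested against vehicle of the same time, so these early calls of DDIT4 include the change seen with vehicle. The early calls in DMSO were lost for DDIT3 without the libraries numbered 1 (adjusted p = 0.365) and for DDIT4 without those numbered 2 (0.128) or 3 (0.339), and that of PPP1R15A in MAPKi without those numbered 1 (0.12). No member's early loss was called different between pretreatments by edgeR or DESeq2, although 3 had an unadjusted p under 0.05, where 0.0134% of all genes were lower and 0% higher (0 genes by edgeR, 198 at an unadjusted p under 0.05 and 0 by DESeq2).

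PSAT1 and PHGDH, the serine synthesis genes, stayed close to their initial levels. PSAT1 was at 538, 671 and 733 normalised counts at 0 h and 616, 636 and 668 after 5 h of triptolide in DMSO, a remaining 98.9% ± 4.03, and in MAPKi 92.8% ± 12.96 remained. PHGDH kept 79.1% ± 18.7 in DMSO and 99.6% ± 6.22 in MAPKi, and its call in DMSO (log2 change -0.34, SE 0.14, adjusted p = 0.0388) was lost without the libraries numbered 3 (adjusted p = 0.27) and turned to 0.22 on the log2 scale with TMM scaling. With TMM scaling PSAT1 was called higher at 5 h, by 0.53 in DMSO and 0.65 in MAPKi, and PHGDH by 0.76 in MAPKi, since TMM sets the middle of all genes to no change: the median log2 change of all genes at 5 h was -0.57 in DMSO and -0.69 in MAPKi with stable-gene scaling and -0.01 and 0.06 with TMM. The share of higher genes among those called went from 2.93% to 39.0% in DMSO and, for MAPKi, from 2.72% to 49.4%. TMM also made the losses of the other members in MAPKi smaller, at -0.95 for ATF4, -4.23 for DDIT3, -2.44 for TRIB3, -3.11 for PPP1R15A and -4.92 for DDIT4, all still called lower. CHAC1 had 15, 5 and 22 reads at 0 h and 0, 0 and 2 at 3 h and 0, 2 and 0 at 5 h of triptolide in DMSO. It was called lower there (adjusted p = 1.75e-05), and no fold is given for so few reads.

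**Figure D3:**
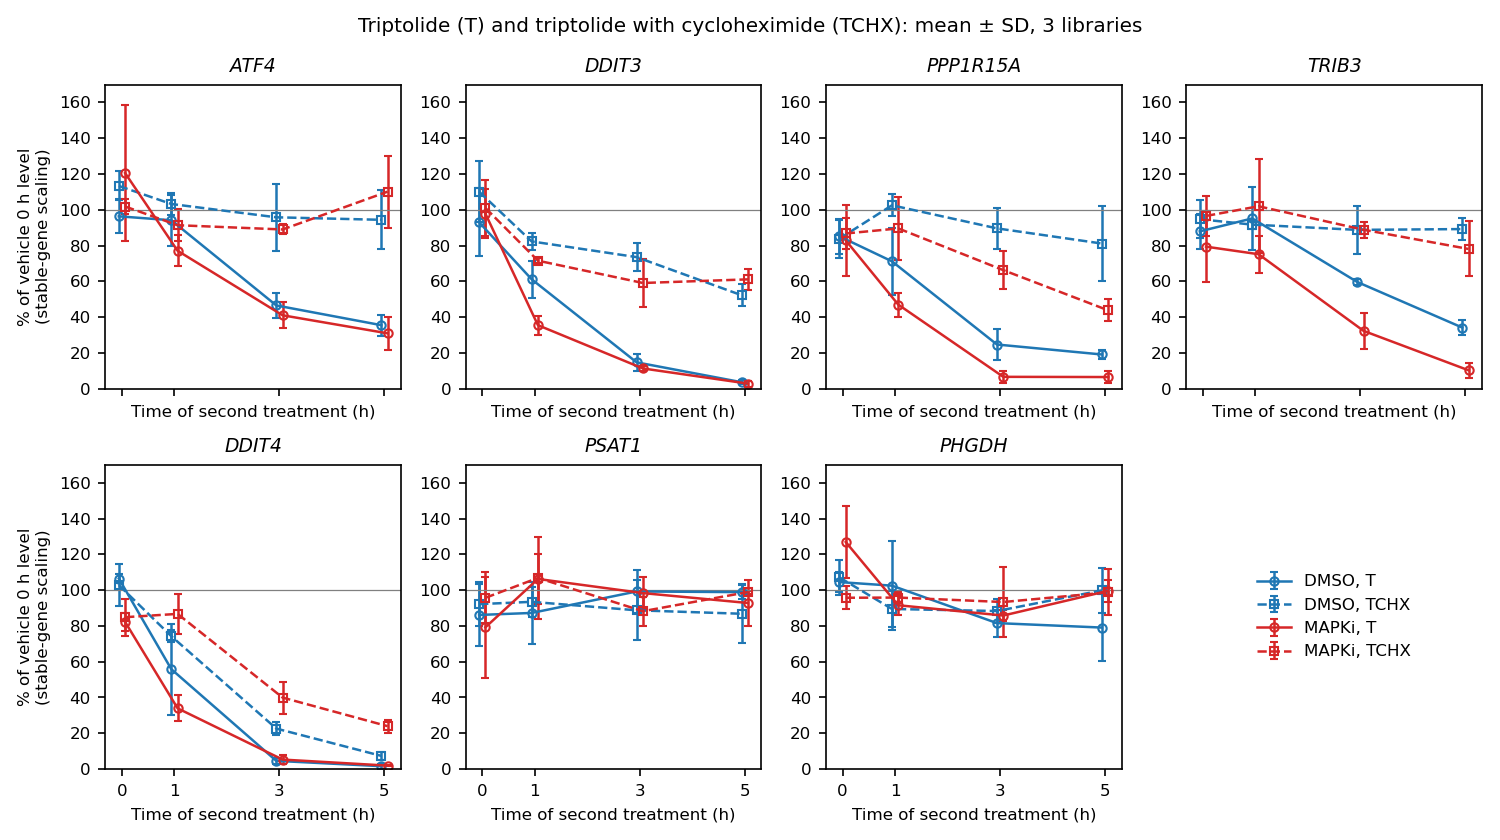
Remaining level of 7 members as a percentage of the vehicle level at 0 h (stable-gene scaling; mean ± SD of 3 libraries) against time (h) with triptolide (T, solid) or triptolide and CHX (TCHX, dashed) in DMSO (blue) and MAPKi (red). The T curves of DDIT3 and DDIT4 approach 0, and the T curves of PPP1R15A and TRIB3 are lower in MAPKi than in DMSO. At 3 and 5 h the TCHX means of ATF4, DDIT3, PPP1R15A, TRIB3 and DDIT4 lie above their T means in both pretreatments. That of PHGDH is also higher in DMSO, where it was not called.

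The fourth set asked how the loss changed when translation was blocked as well, by adding CHX to triptolide. With CHX, more of ATF4, DDIT3, PPP1R15A, TRIB3 and DDIT4 remained in both pretreatments. Over 3 and 5 h, 6 of 8 members were higher in TCHX than in T in DMSO, against 28.4% of all genes tested, and 5 of 8 in MAPKi, against 41.4%. None was called lower by edgeR or DESeq2 or had an unadjusted p under 0.05 in that direction, where 0.468% and 0.535% of all genes were. DDIT3 after 5 h was at 6.64, 10.2 and 6.28 normalised counts with T and 104, 102 and 126 with TCHX in DMSO, and at 9.29, 12.7 and 3.17 and 169.8, 169 and 198 in MAPKi. That was 52.2% ± 6.27 and 61.1% ± 5.70 of the initial level, with 8.31-fold (log2 change 3.06, SE 0.16, adjusted p = 2.60e-28) and 9.96-fold (log2 change 3.32, SE 0.15, adjusted p = 4.70e-32) more than with T alone. ATF4 kept 94.4% ± 16.6 of its initial level in DMSO and 110.1% ± 20.2 in MAPKi, and TRIB3 89.2% ± 6.32 and 78.1% ± 15.4. For both genes the TCHX libraries of 3 and 5 h were above every T library of these times. ATF4 was 2.34-fold higher in DMSO (log2 change 1.22, SE 0.11, adjusted p = 1.29e-15) and 2.79-fold in MAPKi (log2 change 1.48, SE 0.11, adjusted p = 1.23e-19), and TRIB3 1.98-fold (log2 change 0.98, SE 0.13, adjusted p = 6.82e-10) and 4.49-fold (log2 change 2.17, SE 0.17, adjusted p = 1.23e-19).

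PPP1R15A was at 311, 271 and 182 normalised counts at 5 h of TCHX in DMSO and 158, 145 and 119 in MAPKi, against 56.1, 69.3 and 54.6 and 14.3, 32.9 and 15.9 with T. It was 3.92-fold higher in DMSO (log2 change 1.97, SE 0.14, adjusted p = 1.24e-20) and 7.98-fold higher in MAPKi (log2 change 3.00, SE 0.17, adjusted p = 7.51e-27). DDIT4 was the least preserved of the 5: CHX left 7.38% ± 2.15 in DMSO and 24.0% ± 3.68 in MAPKi at 5 h. In DMSO its T and TCHX libraries overlapped when both times were pooled, since T libraries at 3 h exceeded the lowest TCHX library at 5 h. The changes were 4.75-fold (log2 change 2.25, SE 0.24, adjusted p = 1.36e-12) and 9.72-fold (log2 change 3.28, SE 0.19, adjusted p = 1.06e-26). The study expresses this effect as a TDD index, the normalised count with TCHX minus that with T over the initial count. At 3 h it was 0.590 ± 0.0381 (SD, n = 3) in DMSO and 0.477 ± 0.113 in MAPKi for DDIT3, 0.649 ± 0.0462 and 0.620 ± 0.215 for PPP1R15A, 0.492 ± 0.0874 and 0.485 ± 0.105 for ATF4, 0.293 ± 0.125 and 0.560 ± 0.103 for TRIB3 and 0.1802 ± 0.0168 and 0.346 ± 0.0496 for DDIT4. The index used libraries of the same number, which were not shown to be pairs. For PSAT1 it was -0.12 ± 0.153 and -0.11 ± 0.108, and for PHGDH 0.0772 ± 0.149 and 0.0531 ± 0.189, all within 1 SD of 0. At 5 h the index of PPP1R15A was 0.621 ± 0.214 in DMSO and 0.373 ± 0.00555 in MAPKi, with 81.1% ± 21.1 and 43.8% ± 6.16 of the initial level kept in TCHX, that of TRIB3 0.550 ± 0.0123 and 0.682 ± 0.186, and that of DDIT4 0.0588 ± 0.0376 and 0.2199 ± 0.0262.

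Relative to triptolide alone, on the log2 scale, the level with TCHX was raised more in MAPKi than in DMSO for TRIB3, PPP1R15A and DDIT4. For PPP1R15A the TDD index, a difference relative to the initial level, was lower in MAPKi at 5 h. The difference of the TCHX to T ratios was 1.18 for TRIB3 (SE 0.21, adjusted p = 3.89e-05), 1.03 for PPP1R15A (SE 0.23, adjusted p = 0.00108) and 1.03 for DDIT4 (SE 0.34, adjusted p = 0.0466), 3 of 8 members against 6.82% of all genes tested. Of the members 0 were called in the other direction by edgeR, with 1 at an unadjusted p under 0.05 and 1 by DESeq2 (CHAC1), against 0.294% of all genes. This test shares its T libraries with the test of the loss itself. For PPP1R15A the adjusted p was 0.0732 without the libraries numbered 2. For DDIT4 it was 0.0681, 0.0903 and 0.671 without those numbered 1, 2 and 3, and the call was also lost with TMM (0.157), total count (0.0965) and mitochondrial rRNA scaling (0.0877), with stable genes taken at 3 or 5 h (0.0536) and with only the groups compared (0.172). For ATF4 and DDIT3 the 95% intervals of the difference were -0.05 to 0.56 and -0.23 to 0.75. At 1 h in MAPKi, DDIT4 (log2 change 1.36, SE 0.20, adjusted p = 3.68e-06), DDIT3 (log2 change 1.03, SE 0.18, adjusted p = 1.16e-04) and PPP1R15A (log2 change 0.94, SE 0.19, adjusted p = 0.00323) were higher in TCHX than in T, 3 of 8 against 0.341% of all genes, with 0.0268% lower. The call of PPP1R15A was lost without the libraries numbered 1 (adjusted p = 0.194) or 2 (0.131). With only the groups compared, those of DDIT3 (0.0587) and PPP1R15A (0.113) were lost. In DMSO 0 of 8 were called by edgeR or DESeq2 at 1 h, with 3 at an unadjusted p under 0.05, where 0.0401% of all genes were higher and 0% lower (0 genes by edgeR, 217 at an unadjusted p under 0.05 and 0 by DESeq2). The log2 changes there were 0.44 for DDIT3, 0.52 for PPP1R15A and 0.42 for DDIT4. The difference between pretreatments at 1 h was not tested.

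With TMM scaling the share of higher genes among all those called in TCHX against T went from 98.4% to 68.2% in DMSO, from 98.7% to 55.5% in MAPKi and from 95.9% to 76.1% for their difference, and the median of all genes from 0.23 to -0.00, from 0.34 to -0.05 and from 0.13 to -0.02. The members named above as higher in both pretreatments were called higher under it too. PSAT1 and PHGDH were not called with CHX: the 95% intervals of the log2 change in TCHX against T were -0.41 to 0.07 and -0.27 to 0.21 for PSAT1 and 0.03 to 0.42 and -0.14 to 0.25 for PHGDH in DMSO and MAPKi, although TMM scaling called PHGDH lower in MAPKi (log2 change -0.34) and PSAT1 lower in DMSO (-0.40) and MAPKi (-0.42). CHAC1 in DMSO had 9, 19 and 13 reads with TCHX and 0, 0 and 2 with T at 3 h, and 8, 6 and 9 and 0, 2 and 0 at 5 h, and was called higher (adjusted p = 1.24e-06). In MAPKi it had 0 to 4 reads with TCHX at these times and was not called.

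A last set of comparisons, added after the data had been seen, asked what became of the rise with CHX once transcription was blocked. No member was called above its initial level. In TCHX at 5 h, DDIT3 and DDIT4 were below the vehicle level at 0 h in both pretreatments, PPP1R15A was below it in MAPKi, and ATF4 was called in neither. ATF4 was at 1837, 1809 and 2439 normalised counts against 2571, 2013 and 1862 at 0 h in DMSO, overlapping groups with a 95% interval of the log2 change from -0.39 to 0.22, whereas CHX alone took it to 14352, 13523 and 12571. In MAPKi, TMM scaling called ATF4 higher in TCHX than at 0 h (log2 change 0.41). DDIT3 fell to 1.91-fold below its initial level in DMSO (log2 change -0.93, SE 0.17, adjusted p = 1.71e-05) and 1.65-fold in MAPKi (log2 change -0.72, SE 0.16, adjusted p = 5.90e-04). DDIT4 was 13.1-fold lower in DMSO (log2 change -3.71, SE 0.25, adjusted p = 2.74e-21) and 4.18-fold in MAPKi (log2 change -2.06, SE 0.20, adjusted p = 2.28e-13), and PPP1R15A 2.26-fold lower in MAPKi (log2 change -1.18, SE 0.19, adjusted p = 1.05e-06). The counts were 2 of 8 members lower in DMSO against 21.8% of all genes tested, and 3 of 8 in MAPKi against 16.4%. By edgeR 0 were higher in either, with 0 at an unadjusted p under 0.05 and 0 by DESeq2, against 1.41% and 1.66%. Set against CHX alone over 3 and 5 h, TCHX was lower for 4 of 8 members in DMSO and 6 of 8 in MAPKi, against 42.8% and 55.5% of all genes, and higher for 0 in either (0 at an unadjusted p under 0.05 and 0 by DESeq2), against 3.31% and 1.87%. PPP1R15A was 14.7-fold lower in DMSO (log2 change -3.88, SE 0.13, adjusted p = 1.19e-40) and 14.1-fold lower in MAPKi (log2 change -3.82, SE 0.14, adjusted p = 2.51e-39), and DDIT4 19.3-fold (log2 change -4.27, SE 0.17, adjusted p = 3.80e-37) and 5.49-fold (log2 change -2.46, SE 0.14, adjusted p = 3.56e-26). TRIB3 was lower in MAPKi (log2 change -0.91, SE 0.14, adjusted p = 1.35e-08) and not called in DMSO.

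With TMM scaling the share of higher genes among those called went from 6.09% to 33.6% in DMSO and, for MAPKi, from 9.17% to 52.8% for TCHX against the initial level. For TCHX against CHX it went from 7.17% to 46.2% and from 3.26% to 52.8%. CHAC1 in MAPKi was lower in TCHX than in CHX (adjusted p = 3.43e-05), on 1, 4 and 1 against 16, 15 and 12 reads at 5 h, with a log2 change between -3.79 and -2.46 when the libraries numbered 2 or 1 were left out.

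**Figure D4:**
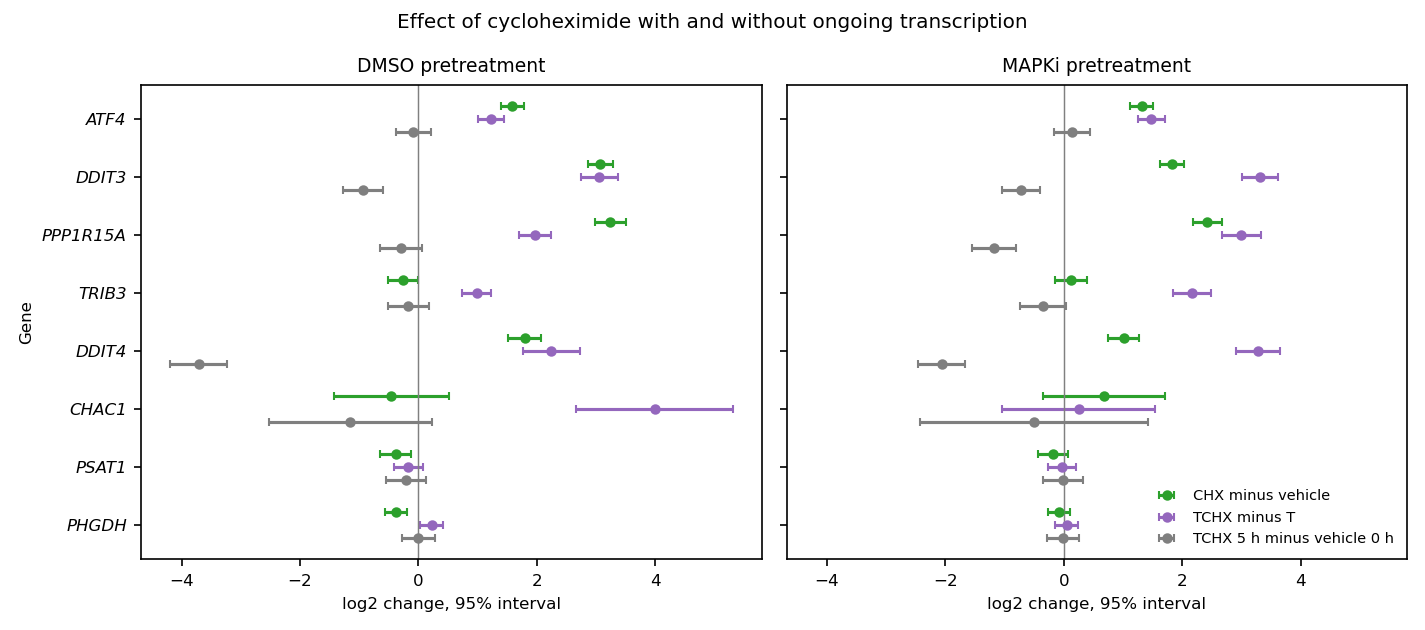
log2 change and 95% interval of the 8 tested members for CHX minus vehicle (green) and TCHX minus T (purple), each over 3 and 5 h, and for TCHX at 5 h minus vehicle at 0 h (grey), in DMSO (left) and MAPKi (right). The grey points of ATF4, DDIT3, PPP1R15A and DDIT4 lie near or below 0 although their green and purple points are above it.

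Across the series, ATF4, DDIT3, PPP1R15A and DDIT4 followed a shared pattern over the 32 group means, which come from the same libraries and the same size factors and are given as a description. Pearson's r of log2 normalised counts was 0.96 for ATF4 with PPP1R15A, 0.93 for DDIT3 with PPP1R15A, 0.91 for ATF4 with DDIT3 and 0.91 for DDIT3 with DDIT4. TRIB3 was closest to CHAC1 (0.79), and its value with DDIT4 was 0.36. PSAT1 had values between -0.21 with DDIT4 and 0.27 with TRIB3, and PHGDH and PSAT1, neighbours in one pathway, had -0.10. Among all tested genes with a mean of at least 10 counts, those most like ATF4 over the 32 groups were RBM39 (0.987), RSRC2 (0.982), BRD2_2 (0.976). For DDIT3 they were CCNT2 (0.977), ACVR2A (0.975), CENPC (0.974), for PPP1R15A CDKN2AIP (0.98), RSRC2 (0.979), COX19 (0.974), and for DDIT4 CDKN1B (0.972), ZNF615 (0.97), ZNFX1 (0.967). TRIB3 was most like CHST10 (0.98), POP7 (0.978), ALKBH2 (0.978). The closest genes to PSAT1 reached only 0.812 (CRYZ) and those to PHGDH 0.834 (POLR2E).

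**Figure D5:**
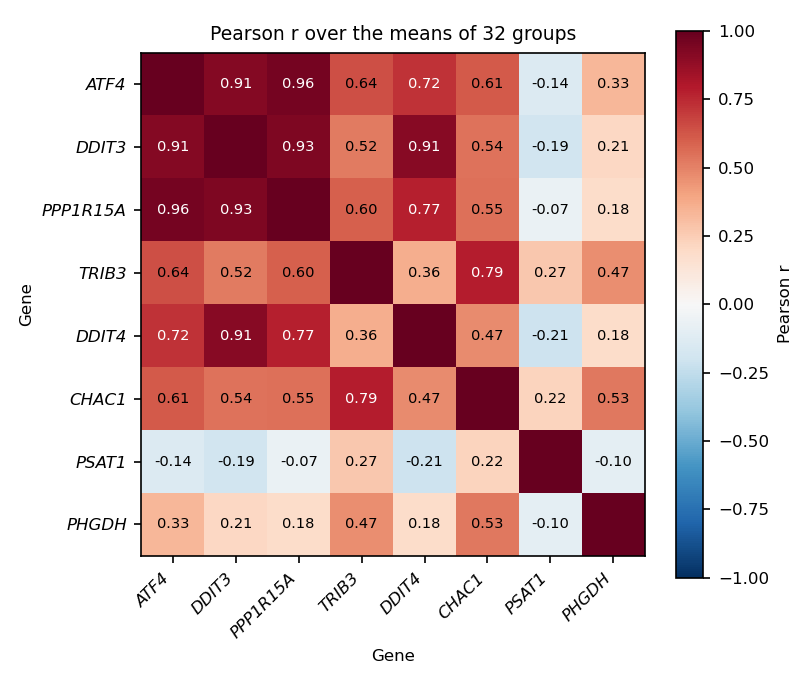
Pearson's r between the 8 tested members over the means of 32 groups (log2 of normalised count + 1, stable-gene scaling; red positive, blue negative). ATF4, DDIT3, PPP1R15A and DDIT4 form a block of values from 0.72 to 0.96, and PSAT1 has values from -0.21 to -0.07 with the members of that block.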

How the data were processed

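Members were selected by symbol and, like the pathway lists, were chosen with earlier results of these data known. Raw read counts per gene were deposited by the authors, who trimmed reads with fastp 0.20.1, aligned them to GRCh38.p13 with HISAT2 2.2.1 and counted them over exons with HTSeq 0.13.5. No molecular identifiers were used, so PCR copies count as reads, and the strand setting of the counting is not given in the sources used here. ERCC RNA was added, but no spike-in values were used here.

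Counts of all 96 libraries (2381351 to 12520154 per library) were fitted with edgeR 4.0.16 in R 4.3.3 (filterByExpr, 32 group means, quasi-likelihood test, Benjamini-Hochberg adjustment over 14948 genes, called at an adjusted p under 0.05). TMM size factors were used for vehicle and CHX and size factors from 36 stable genes for comparisons with triptolide. Stable genes were above 0.2 CPM in vehicle at 0 h and at least 1.1 times that level in T. Their vehicle CPM also had to exceed 10% of that in T, in all 3 replicate numbers of both pretreatments. They were thus picked from vehicle and T libraries that the comparisons with triptolide also use. The rule followed the study's description, but the rise was required at both 3 and 5 h, and the rise at either time that the study describes was an alternative. The comparisons of TCHX with the initial level and with CHX were added after seeing the data. All members were named, up to 2 called genes with the largest rise and 2 with the largest fall from each pathway list and comparison, and the 3 genes most correlated with each member over the means of 32 groups. Groups came from the sample labels. Alternatives were DESeq2 1.42.0, other size factors, no filter, only the groups compared, a replicate block and leaving out each replicate number. The scripts were tested on simulated data. No 2 libraries of a group agreed within sampling noise.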

Additional observations from a re-analysis of the deposited data

Results flagged for a closer look

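In 8 cases the effect of an inhibitor on a member differed between DMSO and MAPKi by the test of the difference itself (edgeR). The response to CHX over 3 and 5 h was smaller in MAPKi for DDIT3 (log2 difference -1.24, SE 0.14, adjusted p = 2.52e-10), PPP1R15A (log2 difference -0.82, SE 0.17, adjusted p = 3.78e-04) and DDIT4 (log2 difference -0.79, SE 0.19, adjusted p = 0.00233). The loss under triptolide over 3 and 5 h was larger in MAPKi for TRIB3 (log2 difference -1.28, SE 0.25, adjusted p = 4.11e-04) and PPP1R15A (log2 difference -1.70, SE 0.26, adjusted p = 3.26e-06). The ratio of TCHX to T over 3 and 5 h was larger in MAPKi for TRIB3 (log2 difference 1.18, SE 0.21, adjusted p = 3.89e-05), PPP1R15A (log2 difference 1.03, SE 0.23, adjusted p = 0.00108) and DDIT4 (log2 difference 1.03, SE 0.34, adjusted p = 0.0466). In TCHX at 5 h, TRIB3 kept 78.1% of its initial level in MAPKi and 89.2% in DMSO. PPP1R15A kept 43.8% and 81.1%, and DDIT4 24.0% and 7.38%. The effects on loss and on the ratio of TCHX to T share the triptolide libraries and are not independent. Cases for TRIB3 and PPP1R15A in the triptolide arms rest on few reads in MAPKi, where TRIB3 had 15, 15 and 4 and PPP1R15A 20, 57 and 15 reads at 5 h. DDIT4 had 6, 2 and 16 reads with triptolide at 5 h in DMSO, and its call in TCHX against T was lost in 8 of 11 alternatives, with log2 differences from 0.56 to 1.35.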

How the results depend on the processing

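Of 261 alternative counts of members called, 237 were within 1.5 times the reported count and 24 were not. Without the filter on low counts, 2 members were called for CHX at 1 h in DMSO, 2 in MAPKi and 1 for their difference. With only the groups compared in the fit, 0 were called for CHX at 1 h in DMSO, 0 for triptolide at 1 h in DMSO and 1 for TCHX against T at 1 h in MAPKi. Triptolide at 1 h in DMSO gave 1 with TMM scaling, 1 with the initial level from the triptolide arm at 0 h and 0 with mitochondrial rRNA scaling. Stable-gene scaling gave 5 for the difference in CHX effect over 3 and 5 h. Leaving out 1 replicate number gave 2 to 6 for MAPKi against DMSO at 0 h, 0 in each case for vehicle at 5 h against 0 h in DMSO, 0 in each case for CHX at 1 h in DMSO, 0 to 1 for it in MAPKi, 1 in each case for triptolide at 1 h in DMSO, 1 to 2 for the difference in triptolide loss and 1 to 2 for the difference in TCHX against T. Of 2088 alternative values of single members, 2003 kept direction and call, 48 lost the call, 28 gained one and 9 reversed. With TMM scaling, the log2 change at 5 h of triptolide was 0.53 for PSAT1 and 0.22 for PHGDH in DMSO and 0.65 for PSAT1 in MAPKi, that of TCHX against T in MAPKi was -0.34 for PHGDH, and that of TCHX against CHX in MAPKi was 0.42 for PSAT1 and 0.53 for PHGDH. With total counts, PHGDH was at 0.015 for triptolide at 5 h in DMSO and 0.28 for TCHX against CHX in MAPKi. With the initial level from the triptolide arm, PHGDH was at -0.33 at 5 h in MAPKi. TMM and total counts set the middle or sum of all genes equal by construction. Stable-gene scaling rests on genes picked for a rise in the same triptolide libraries. The cause of the other changes was not tested.

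Same-numbered libraries deviated together weakly at most (median r 0.0283, over 0.1 in 410 of 1488 pairs). For different numbers the median was -0.0135, with 589 of 2976 pairs over 0.1. This check pooled pairs within and between pretreatments. In MAPKi vehicle libraries PSAT1 was lowest in number 2 at 0, 1 and 3 h, at 62.4, 62.8 and 61.2 CPM. In DMSO it was lowest in number 1 at these times, at 68.8, 78.1 and 86.6 CPM. Independence of libraries across times within a pretreatment was not tested. The numbers were not taken to pair samples. A replicate block changed no count of members called and no call of a single member, with 4 members called for MAPKi against DMSO at 0 h as without the block. The block was common to both pretreatments and cannot remove a pattern that differs between them. With few reads, CHAC1 limits every statement about it, ASNS and SESN2 allow none, and time may coincide with batch.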

Other observations

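The loss of mRNA under triptolide was also counted for the pathway lists. After 5 h in DMSO, 11 of 13 partner transcription factor genes were lower and 0 higher, with a median log2 change of -2.02, and in MAPKi 12 of 13 were lower, with a median of -2.76. Over all genes tested 49.3% and 55.1% were lower, with medians of -0.57 and -0.69. NFIL3, a bZIP repressor, changed by -4.80 (SE 0.43) in DMSO and -6.16 (SE 0.38) in MAPKi. Of the list of amino acid metabolism, 2 of 12 genes were lower in DMSO and 3 of 12 in MAPKi, with medians of -0.22 and -0.22, and GPT2, an alanine aminotransferase, changed by -0.44 (SE 0.17) and -0.68 (SE 0.18). Between these lay the tRNA synthetase list, where 10 and 11 of 12 genes were lower, with medians of -0.34 and -0.40. These lists were not tested against each other.

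Adding CHX to triptolide left more mRNA of 10 of 13 partner transcription factor genes in DMSO and of 10 of 13 in MAPKi over 3 and 5 h, with median log2 changes of 1.11 and 1.81, against 0.23 and 0.34 for all genes tested. NFIL3 was again among them, at 3.18 (SE 0.31) and 4.32 (SE 0.29). Of the signal and stress targets, 8 and 10 of 15 were higher, led by BBC3, which encodes the apoptosis protein PUMA, at 2.76 (SE 0.29) in DMSO, and of the genes of amino acid metabolism 1 and 4 of 12. Of all genes tested, 28.4% were higher in DMSO and 41.4% in MAPKi. This effect of CHX under triptolide differed between pretreatments for CEBPD (log2 difference 1.67 (SE 0.33)) and ATF3 (1.65 (SE 0.37)), both larger in MAPKi. For ATF3 the difference in the CHX effect without triptolide, given above, went the other way.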
